A study of Mus musculus with 12 samples.

Results

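The fetal gene program of the stressed heart was followed here through 6 genes, Nppa, Nppb, Myh6, Myh7, Acta1 and Actc1, which were found by symbol among the 25171 rows of the deposited count table. RNA-seq was made from 12 mouse hearts, 3 in each of 4 groups, and all 12 mice carried human NOTCH2NLC, with a tract of 98 GGC repeats, at Rosa26 behind a loxP-flanked stop sequence. EIIa-tg mice also carried EIIa-Cre (E2a in the labels), which acts in all tissues, while EIIa-ctl mice were littermates without this Cre, and both were taken at day 30. By their labels both groups of the second model carried Myh6-creERT2, a tamoxifen-inducible Cre under the Myh6 promoter, and were taken at day 90. The mice labelled Myh6-tg had received tamoxifen in corn oil at 75 mg per kg in 3 injections from day 60, and those labelled Myh6-ctl had received the oil without tamoxifen. The Cre of this model is thus driven by the promoter of a gene described below, and age, Cre line, oil and tamoxifen cannot be told apart between the models. Within the Myh6 model, effects of tamoxifen, of the activated Cre and of the transgene it switches on cannot be told apart either. The labels name no strain and call the hearts biological replicates.

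The fetal gene program is a set of genes that the heart uses before birth, turns down in the adult ventricle and turns up again under load or injury. In the mouse its best known parts are the natriuretic peptides, hormones that the stretched heart wall secretes, a replacement of the fast α myosin heavy chain by the slower β chain, and a return of the skeletal isoform of α-actin beside the cardiac isoform. Rodent hearts are known for making almost only the α myosin chain in adult life, which makes the exchange easy to see.

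The genes lie in 2 neighbouring pairs and at 2 single sites (positions in GRCm38, GENCODE M21). Nppb (chr4:147985788-147987205, plus strand) ends 13516 bases before Nppa (chr4:148000722-148002079, plus strand). Myh6 (chr14:54941921-54966927, minus strand) lies 3756 bases from Myh7 (chr14:54970684-54994626, minus strand). Acta1 is at chr8:123891769-123894751 and Actc1 at chr2:114047282-114053548, both on the minus strand.

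The myosin genes also carry a microRNA each in an intron, so that a change in the host transcript bears on the microRNA it contains. The mature sequences from RefSeq (GRCm38.p6) are shown because the products of Myh6 and Myh7 share a seed (bases 2 to 8, in capitals). miR-208a-3p is encoded in intron 29 of Myh6, miR-208b-3p in intron 31 of Myh7, and miR-499-5p, with another last seed base, in intron 19 of Myh7b, a further myosin gene described below. MicroRNAs were not measured in these libraries.
miR-208a-3p: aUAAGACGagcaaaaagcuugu
miR-208b-3p: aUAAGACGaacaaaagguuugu
miR-499-5p: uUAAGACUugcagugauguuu

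The promoters of 3 genes are shown as well, because Nppa, Acta1 and Myh7 are the program genes that passed the test in EIIa-tg hearts. Each is the 250 bases before the start of the RefSeq transcript (GRCm38.p6), written in the direction of the gene, and none of them overlaps an exon of these genes in GENCODE. Both strands were searched for 5 motifs, whose matches are in capitals. The promoter box that positions the polymerase was searched as TATAAA, the core site of GATA factors as GATAA, and the M-CAT element, which TEAD factors bind, as CATTCC. The CArG box, which SRF binds, and the MEF2 site were searched by their consensus. Apart from the CArG box, which reads as a match on both strands, matches did not overlap. The Nppa window (chr4:148000472-148000721) held GATAA on each strand and a TATA box. The Acta1 window (chr8:123894776-123895025) held a CArG box, an M-CAT element and a TATA box, and the Myh7 window (chr14:54994627-54994876) held an M-CAT element on the opposite strand. A second RefSeq start of Myh7, whose window overlaps the first and an exon, held none of the motifs.
Nppa: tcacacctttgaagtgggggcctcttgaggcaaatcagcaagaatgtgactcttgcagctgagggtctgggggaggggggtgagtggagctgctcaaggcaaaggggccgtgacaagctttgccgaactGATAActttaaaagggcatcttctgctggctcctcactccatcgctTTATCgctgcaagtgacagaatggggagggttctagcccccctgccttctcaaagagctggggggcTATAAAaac
Acta1: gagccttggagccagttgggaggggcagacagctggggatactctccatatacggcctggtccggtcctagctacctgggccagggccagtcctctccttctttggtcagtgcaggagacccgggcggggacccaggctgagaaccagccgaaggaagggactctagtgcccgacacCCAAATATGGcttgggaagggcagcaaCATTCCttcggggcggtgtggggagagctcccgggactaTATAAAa
Myh7: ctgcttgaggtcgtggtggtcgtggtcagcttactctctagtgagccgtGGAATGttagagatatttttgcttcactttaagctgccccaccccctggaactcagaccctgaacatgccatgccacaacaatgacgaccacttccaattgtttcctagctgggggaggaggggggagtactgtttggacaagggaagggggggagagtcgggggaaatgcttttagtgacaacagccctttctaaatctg

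Among 32851 RefSeq promoter windows of the same length, 12.4% held a TATA box, 22.6% GATAA, 12.6% an M-CAT element, 1.47% a CArG box and 2.92% a MEF2 site. Of the windows not printed, that of Actc1 also held a CArG box, at bases -47 to -38 from the RefSeq start against -73 to -64 in Acta1, and those of Nppb and Myh6 each held an M-CAT element. The Nppb window, like that of Nppa, also held GATAA at 2 sites and a TATA box. These matches are descriptions of letters, and no binding was measured.

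Between 38343106 and 50969834 reads per heart were counted, and the 6 genes together took 1.06% to 2.89% of them, so that counting error was small beside the spread between hearts. Levels are given in CPM, counts scaled to a total of 1e+06 per heart. Transcripts of mitochondrial DNA made up 17.3% ± 1.62 (SD, n = 3) in hearts labelled Myh6-tg against means of 30.7% to 35.9% in the other groups. Y-linked genes had 4224 to 7307 counts in replicate 1 of every group and at most 2 in the other hearts. As a check of the labels, Esr1, whose ligand-binding part serves in creERT2, was at 2023, 1141 and 1067 CPM in the hearts labelled Myh6-ctl, but at 1.42, 3.03 and 1.31 CPM in those labelled Myh6-tg and at 0.364 to 1.24 CPM in the EIIa hearts, although the labels give both groups the same genotype. Groups of this model are therefore named as labelled, and a direction between them rests on the labels. The difference in Esr1 stands beside that in tamoxifen, and the part of either in the comparisons below was not tested.

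Each transgenic group was compared with its controls by edgeR's quasi-likelihood test, without pairing hearts by replicate number. A gene passed at a Benjamini-Hochberg adjusted p under 0.05 over all genes tested. In EIIa-tg hearts 3 of the 6 genes passed, Nppa and Myh7 with a rise and Acta1 with a fall, beside 17.0% of all 14908 genes tested (8.65% higher and 8.30% lower). In hearts labelled Myh6-tg 1 of the 6 passed, Myh6 with a fall, beside 18.3% of 15298 genes (8.96% higher and 9.38% lower). By the stricter thresholds of the study, an adjusted p under 0.01 with a log2 fold change of at least 1, 0 of the 6 were differentially expressed genes (DEGs) in either model by edgeR, beside 0% of all genes in the EIIa model and 3.97% in the Myh6 model, while 6 had an unadjusted p under 0.05 in the EIIa model, beside 34.9% of all genes, and 2 in the Myh6 model, beside 34.1%. The study itself applied these thresholds to DESeq2. In the EIIa model DESeq2 made Acta1 a DEG, beside 4.96% of the genes it gave an adjusted p, and in the Myh6 model Myh6, beside 12.1%. The 6 genes did not move as a block in either model, as the plot of their levels in each heart shows.

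**Figure D1:**
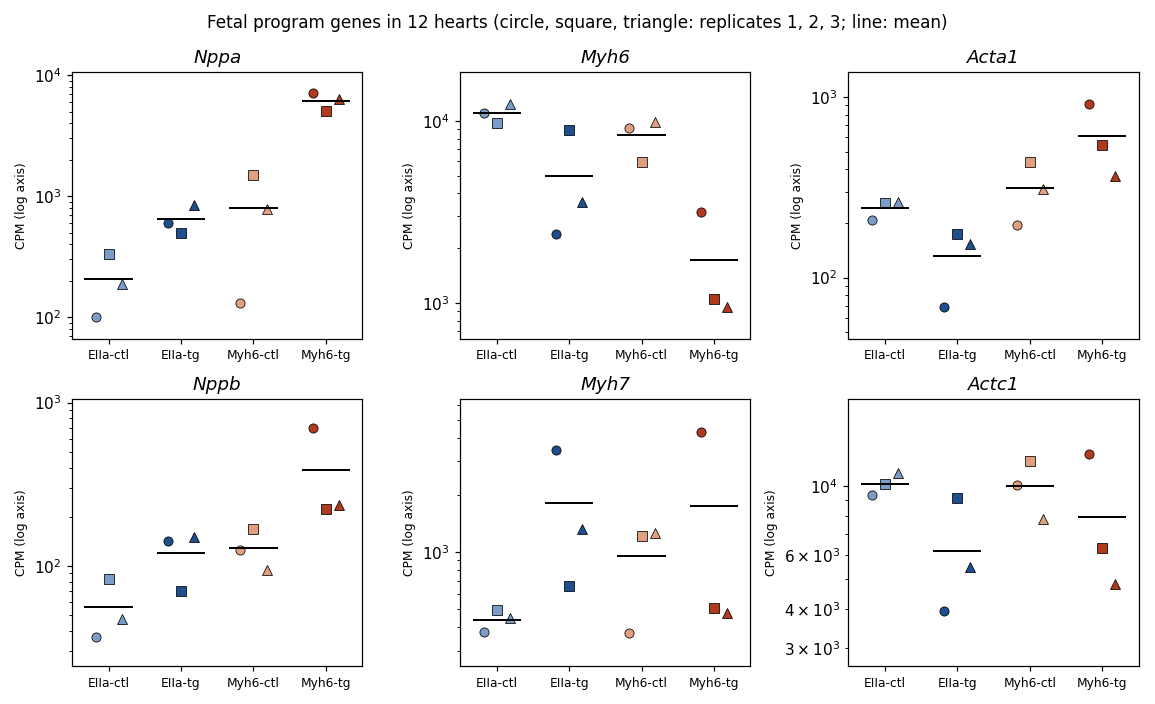
CPM of the 6 genes (log axis) in each of the 12 hearts by group, with replicates 1, 2 and 3 as circle, square and triangle and the group mean as a line. Nppa is highest in the 3 hearts labelled Myh6-tg (5014 to 7090 CPM), and Myh7 is highest in replicate 1 of both transgenic groups (3461 and 4273 CPM).

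The gene with the widest range was Nppa, which encodes the precursor of atrial natriuretic peptide, a hormone that lowers blood volume and pressure. It had 99.7, 332 and 186 CPM in EIIa-ctl hearts and 599, 491 and 852 CPM in EIIa-tg hearts. In the older model it had 131, 1496 and 785 CPM in the hearts labelled Myh6-ctl and 7090, 5014 and 6289 CPM in those labelled Myh6-tg. Every transgenic heart was above every control heart of its model, but the hearts labelled Myh6-ctl ran from 131 to 1496 CPM, and 2 of them lay within or above the range of the EIIa-tg hearts. The rise passed in EIIa-tg hearts, 2.75-fold, with a log2 fold change of 1.46 ± 0.36 (SE) and an adjusted p of 0.0326. It was 5.70-fold in hearts labelled Myh6-tg, with a log2 fold change of 2.51 ± 0.77 and an adjusted p of 0.0581, which did not pass. The labels name no pairs of hearts, but deviations of same-numbered hearts in the Myh6 model correlated at 0.285, 0.184 and 0.173. Blocked on replicate number, an alternative, the log2 fold change in that model was 3.03 with an adjusted p of 0.0453, which passed. In the EIIa model the same block lost the call of Nppa, as it did those of Myh7 and Acta1.

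The Nppa call depended on which hearts were kept, while the direction did not. Over 17 alternative settings its log2 fold change was 1.14 to 1.94 in the EIIa model and 2.00 to 3.51 in the Myh6 model. A fit with 1 heart fewer also has less power, so a lost call need not mean a smaller change. In the EIIa model the call was lost without EIIa-ctl replicate 1 (log2 fold change 1.14), EIIa-ctl replicate 3 (1.40), EIIa-tg replicate 1 (1.49) or EIIa-tg replicate 3 (1.28), and it held without either replicate 2. In the Myh6 model it was gained without Myh6-ctl replicate 2, the control heart with the highest Nppa, at a log2 fold change of 3.51 and an adjusted p of 0.0409.

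Nppb, the gene of B-type natriuretic peptide, had 36.7, 83.4 and 47.4 CPM in EIIa-ctl hearts and 142, 70.1 and 150 CPM in EIIa-tg hearts. Replicate 2 of EIIa-tg lay inside the control range, and the other EIIa-tg hearts lay above it. The log2 fold change was 0.92 ± 0.32 with an adjusted p of 0.0793, so that Nppb did not pass, while without EIIa-ctl replicate 2 it did (1.28, adjusted p 0.0396). In the Myh6 model it had 126, 168 and 94.0 CPM in the hearts labelled Myh6-ctl and 700.0, 223 and 237 CPM in those labelled Myh6-tg. The groups did not overlap in CPM, which leaves out the TMM factors of the test. The log2 fold change of 1.20 ± 0.54 (2.30-fold) had an adjusted p of 0.160, and without Myh6-tg replicate 1 it was 0.32. Nppa thus passed in EIIa-tg hearts where its neighbour Nppb did not, and no test of the difference between the genes was made.

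Myh6, the gene of the α myosin heavy chain and the main motor protein of the adult mouse heart, was lower in the transgenic hearts of both models, and the fall passed in the older one. Its level was 11126, 9812 and 12419.7 CPM in EIIa-ctl hearts and 2400.4, 8884 and 3587 CPM in EIIa-tg hearts. EIIa-tg replicate 2 stood close under the controls and the other EIIa-tg hearts far under them. The log2 fold change was -1.34 ± 0.46 with an adjusted p of 0.0773, which did not pass. Without EIIa-tg replicate 2 it was -2.14 with an adjusted p of 0.000806.

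Under the label Myh6-ctl the gene had 9123, 5944 and 9917 CPM, and under the label Myh6-tg 3158, 1055 and 955 CPM. All 3 transgenic hearts were under all controls, and the fall was 6.05-fold, with a log2 fold change of -2.60 ± 0.57 and an adjusted p of 0.0208. Blocked on replicate, the log2 fold change was -2.87 with an adjusted p of 0.00657, which met the thresholds of a DEG. The call was lost without Myh6-ctl replicate 1 (-2.49), Myh6-ctl replicate 3 (-2.58), Myh6-tg replicate 2 (-2.32) or Myh6-tg replicate 3 (-2.27).

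Myh7, the gene of the β myosin heavy chain, rose in EIIa-tg hearts and went in no common direction in the hearts labelled Myh6-tg. It had 375, 490.3 and 444 CPM in EIIa-ctl hearts and 3461, 657 and 1320.1 CPM in EIIa-tg hearts. The ranges did not overlap, and replicate 1 of EIIa-tg was far above the others. The rise was 3.64-fold, with a log2 fold change of 1.87 ± 0.51 and an adjusted p of 0.0423, and without EIIa-tg replicate 1 the log2 fold change was 0.94 and did not pass. The call also ended without EIIa-ctl replicate 1 (1.79), EIIa-ctl replicate 2 (1.92), EIIa-ctl replicate 3 (1.88) or EIIa-tg replicate 3 (2.08), and with a covariate for the Y-linked counts (1.55, adjusted p 0.0644).

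At day 90 Myh7 had 374, 1205 and 1261 CPM in the hearts labelled Myh6-ctl and 4273, 504 and 476 CPM in those labelled Myh6-tg. In CPM replicate 1 of Myh6-tg was above every control, while the other Myh6-tg hearts lay between the controls. This placing leaves out the TMM factors of the test. The log2 fold change was 0.60 ± 0.92 with an adjusted p of 0.693. In the fit blocked on replicate it was -0.45 (adjusted p 0.806), and without Myh6-tg replicate 1 it was -1.40 (adjusted p 0.0740), so that 1 heart set the sign. The heart in question also had the highest summed level of 8 cardiomyocyte markers (22271 CPM, against 10455 and 9398 CPM in the other hearts labelled Myh6-tg) and Y-linked counts, and their part in its Myh7 level was not tested.

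**Figure D2:**
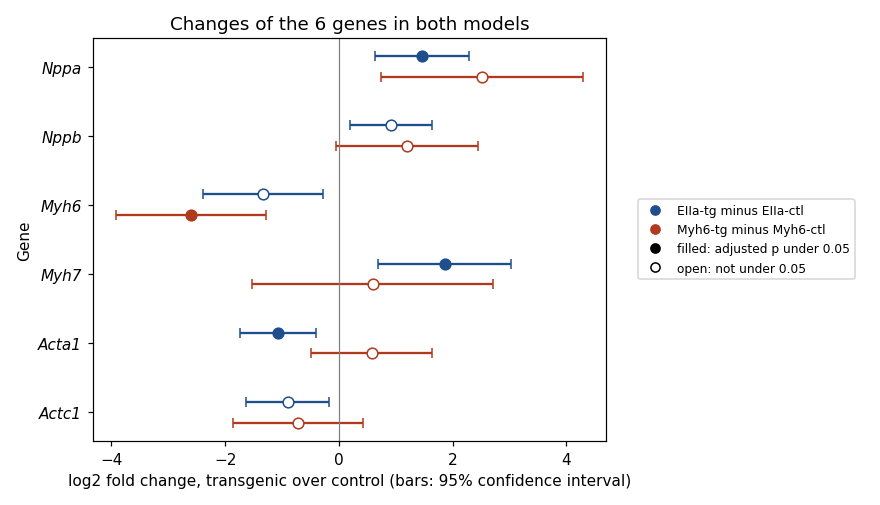
log2 fold change of each gene, transgenic over control, in the EIIa model (blue) and the Myh6 model (red), with bars for the 95% confidence interval and filled points for an adjusted p under 0.05. The filled points are Nppa, Myh7 and Acta1 in the EIIa model and Myh6 in the Myh6 model, and the interval of Myh7 in the Myh6 model runs from -1.52 to 2.72.

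The exchange of myosin chains was measured within each heart as the share of Myh7 in the summed FPKM of Myh6 and Myh7, where FPKM corrects for transcript length and a share does not depend on the scaling between hearts. The share was 3.18%, 4.57% and 3.35% in EIIa-ctl hearts and 55.3%, 6.71% and 25.1% in EIIa-tg hearts. In the hearts labelled Myh6-ctl it was 3.86%, 15.0% and 11.1%, and in those labelled Myh6-tg 56.5%, 29.3% and 31.3%. In both models every transgenic heart had a larger share than every control, and the difference of means was 25.3 percentage points in the EIIa model and 29.0 in the Myh6 model. The two-sided exact permutation p was 0.1 in each, the smallest that 3 against 3 hearts allow. Without EIIa-tg replicate 1 the EIIa difference was 12.2 points.

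The chains behind the larger share can be read from their own levels. In EIIa-tg replicate 1 Myh7 stood at 552 FPKM beside 447 FPKM of Myh6. In Myh6-tg replicates 2 and 3 Myh7 was at 80.7 and 76.3 FPKM, below the 192 and 202 FPKM of the same-numbered controls, while Myh6 was at 194 and 168 FPKM against 1090.2 and 1616 FPKM. The transcripts of the pair are 89.0% identical over 6149 aligned bases, with a longest shared run of 245 bases, so that counts could be split between them in a way that depends on how the authors treated reads with several matches, and the levels are uncertain to that extent.

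**Figure D3:**
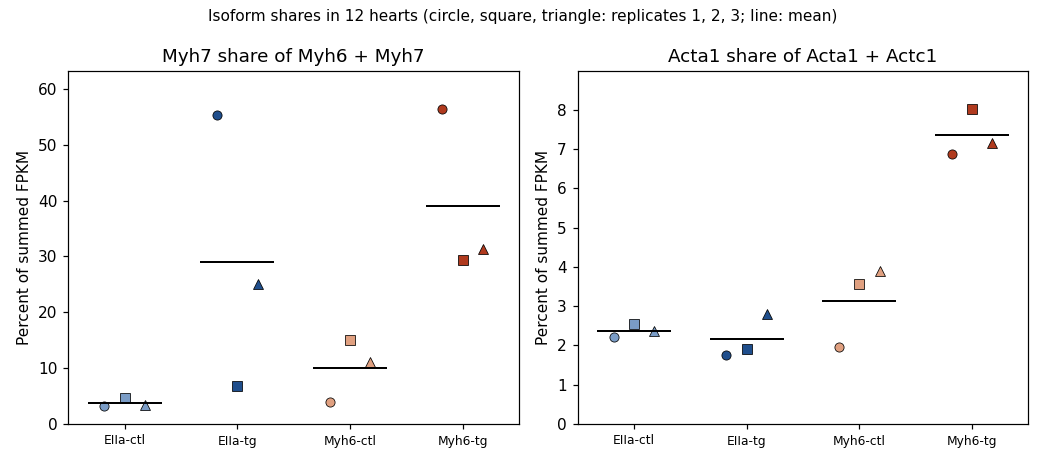
Share of Myh7 in Myh6 plus Myh7 and of Acta1 in Acta1 plus Actc1, in percent of summed FPKM, in each heart by group, with replicates 1, 2 and 3 as circle, square and triangle and the mean as a line. The Myh7 share is larger in every transgenic heart than in the controls of its model, and the Acta1 share only in the hearts labelled Myh6-tg (6.89% to 8.04%).

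Acta1, the gene of skeletal α-actin, fell in EIIa-tg hearts and did not pass in the hearts labelled Myh6-tg. It had 208, 259 and 262 CPM in EIIa-ctl hearts and 68.9, 174 and 154 CPM in EIIa-tg hearts. Every EIIa-tg heart was below every control, and the fall was 2.10-fold, with a log2 fold change of -1.07 ± 0.29 and an adjusted p of 0.0433. The call held without EIIa-tg replicate 2 (-1.38, adjusted p 0.00923) and was lost without EIIa-ctl replicate 1 (-1.15), EIIa-ctl replicate 2 (-1.05), EIIa-ctl replicate 3 (-1.01), EIIa-tg replicate 1 (-0.76) or EIIa-tg replicate 3 (-1.13).

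At day 90 Acta1 had 197, 438 and 312 CPM in the hearts labelled Myh6-ctl and 922, 541 and 365 CPM in those labelled Myh6-tg. The groups overlapped, since Myh6-tg replicate 3 lay below Myh6-ctl replicate 2. The log2 fold change was 0.58 ± 0.46 with an adjusted p of 0.418, and it was 0.05 without Myh6-tg replicate 1.

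Actc1, the gene of cardiac α-actin, was the most abundant program transcript by mean FPKM in every group but Myh6-tg, where Nppa was higher (6965 against 5305 FPKM). It was at 6769 ± 542 (SD, n = 3) in EIIa-ctl hearts, where Acta1 was at 165 ± 20.4 FPKM. It had 9352, 10121 and 11020.4 CPM in EIIa-ctl hearts and 3939, 9162 and 5456 CPM in EIIa-tg hearts. The groups did not overlap, but EIIa-tg replicate 2 was next to the controls, and the log2 fold change of -0.90 ± 0.32 (adjusted p 0.0834) did not pass. In the older hearts it had 10089, 12061 and 7829 CPM under the label Myh6-ctl and 12721, 6314 and 4824 CPM under the label Myh6-tg, with a log2 fold change of -0.71 ± 0.49 and an adjusted p of 0.351. In CPM, which leaves out the TMM factors, replicate 1 of Myh6-tg was the highest of all 12 hearts and the other Myh6-tg hearts were below all their controls.

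The share of Acta1 in the summed FPKM of both actins was 2.21%, 2.54% and 2.36% in EIIa-ctl hearts and 1.75%, 1.90% and 2.80% in EIIa-tg hearts. These ranges overlapped, and the two-sided exact permutation p was 0.5. In the Myh6 model the share was 1.95%, 3.56% and 3.90% in controls and 6.89%, 8.04% and 7.17% in the hearts labelled Myh6-tg. There the groups did not overlap, the means differed by 4.23 percentage points, and the exact p was 0.1, the smallest possible. A larger share of skeletal actin was thus seen in the hearts labelled Myh6-tg, whose level of Acta1 itself did not pass. The 2 actin transcripts were 78.9% identical over 1409 aligned bases with a longest shared run of 29 bases.

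By ranges in CPM alone, 5 of the 6 genes (all but Nppb) did not overlap between groups in the EIIa model and 3 (Nppa, Nppb and Myh6) in the Myh6 model. The TMM factors of the tests were not applied to these ranges. Of all genes with a mean of at least 1 CPM, 47.3% did not overlap in the EIIa model and 48.2% in the Myh6 model, so that separate ranges were common in these hearts.

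Whether a gene changed differently in the 2 models was tested over all 12 hearts, as the log2 fold change in the Myh6 model minus that in the EIIa model. By edgeR 0 of the 6 genes passed, beside 3.92% of 15929 genes, and 1, Acta1, had an unadjusted p under 0.05, a share near the 19.4% of all genes. Its difference was 1.64 ± 0.61 (SE), with an interval from 0.32 to 2.96, an unadjusted p of 0.0188 and an adjusted p of 0.157. For Nppa the difference was 1.04, with an interval from -0.93 to 3.02, for Myh6 -1.25 (-2.95 to 0.44) and for Myh7 -1.27 (-3.86 to 1.31). Without Myh6-tg replicate 1 the differences of Myh7 (-3.27, adjusted p 0.0272) and Myh6 (-2.17, adjusted p 0.04997) passed, beside 10.6% of all genes in that fit.

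The control groups differed in age, Cre line and oil, which cannot be told apart. Nppa was at 206 ± 117 CPM in EIIa-ctl and 804 ± 683 CPM in Myh6-ctl hearts (SD, n = 3 each), Nppb at 55.8 ± 24.5 and 129 ± 37.1 CPM, and Myh7 at 437 ± 57.9 and 947 ± 497 CPM. Of these only Nppb had ranges that did not overlap. By edgeR 0 of the 6 passed between control groups, beside 0.0334% of 14990 genes, and 3 had an unadjusted p under 0.05, beside 11.3% of all genes, namely Nppa (adjusted p 0.364), Nppb (0.206) and Myh7 (0.324). DESeq2 passed 2 of them, beside 2.63% of its genes, Nppb with a log2 fold change of 1.26 and Myh7 with 1.11. Without Myh6-ctl replicate 1 edgeR passed Myh7 at 1.47, beside 0.639% of genes. In order of mean FPKM, Nppa ran from EIIa-ctl through EIIa-tg and Myh6-ctl to Myh6-tg, and only EIIa-tg and Myh6-ctl overlapped as neighbours in that order. Actc1 showed the flattest order, from 4124 FPKM in EIIa-tg to 6769 FPKM in EIIa-ctl, with an overlap at each step.

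Leaving out 1 heart at a time changed the calls of the EIIa model. A fit with fewer hearts also has less power, so a lost call does not measure the weight of the heart left out. Without EIIa-tg replicate 2, the transgenic heart nearest the controls in each of the 6 genes, all 6 genes passed, beside 26.6% of all genes in that fit, and 4 were DEGs, beside 6.02%. Without EIIa-ctl replicate 1, EIIa-ctl replicate 3, EIIa-tg replicate 1 or EIIa-tg replicate 3, 0 of the 6 passed by edgeR. In the Myh6 model the number that passed ranged from 0 to 2. The share of all genes that passed is not given for these other fits. From the values given here, a loss over all genes cannot be told apart from a loss in the program genes.

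**Figure D4:**
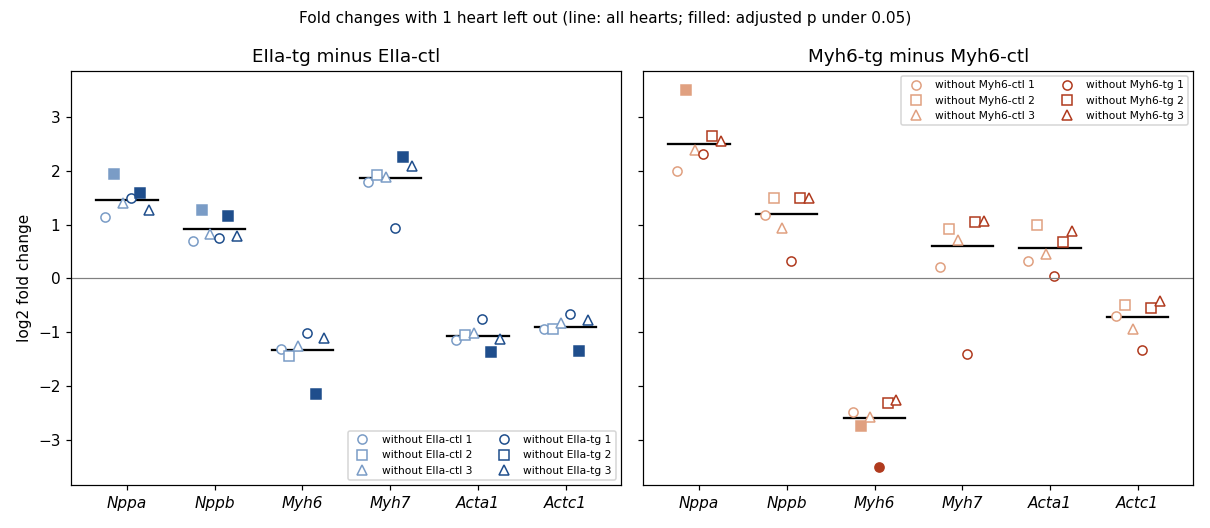
log2 fold change of each gene with 1 heart left out (symbols by the heart left out, filled for an adjusted p under 0.05) beside the value with all hearts (line), in the EIIa model and the Myh6 model. Without EIIa-tg replicate 2 all 6 genes are filled, and Myh7 in the Myh6 model moves to -1.40 without Myh6-tg replicate 1.

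Bulk hearts hold many cell types, and fewer cells of a type and less RNA per cell cannot be told apart. All 8 cardiomyocyte markers were present in every group, and their summed level was 16018 to 17856 CPM in EIIa-ctl, 13626 to 15987 CPM in EIIa-tg, 13244 to 14867 CPM in Myh6-ctl and 9398 to 22271 CPM in Myh6-tg hearts. In each model 2 of the 8 passed, both lower, beside 17.0% of all genes tested in the EIIa model and 18.3% in the Myh6 model. The counts of other markers that passed, given below, stand beside the same shares. Relative to this sum, an alternative chosen after seeing the data, Nppa was higher by 1.99 on the log2 scale in EIIa-tg hearts and by 3.59 in hearts labelled Myh6-tg, and Myh6 lower, at -1.18 and -2.38. In this measure the ranges of Acta1 did not overlap in either model, with -0.77 in the EIIa model and 1.01 in the Myh6 model (two-sided exact permutation p 0.1 for each of these values, the smallest possible). Myh7 (1.94) and Actc1 (-0.60) in the EIIa model and Nppb (1.49) in the Myh6 model had the same p. Ranges overlapped for Nppb in the EIIa model (1.32, exact p 0.2). In the Myh6 model they overlapped for Myh7 (0.37, exact p 0.7) and Actc1 (-0.35, exact p 0.2).

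Nppa is also an atrial gene. The 8 atrial markers summed to 25.6 to 33.4 CPM in EIIa-ctl, 43.2 to 73.2 CPM in EIIa-tg, 29.8 to 45.4 CPM in Myh6-ctl and 75.3 to 238 CPM in Myh6-tg hearts, and of those tested 1 of 4 passed in the EIIa model (Dkk3) and 2 of 5 in the Myh6 model (Dkk3 and Myl4), all higher. Dkk3 was at 60.7, 125 and 167 CPM in the hearts labelled Myh6-tg, which was most of their sum. Stard10, the atrial marker with the highest mean in the other groups, did not rise there. It was at 4.58, 20.4 and 21.8 CPM against 20.1, 29.0 and 25.4 CPM in the hearts labelled Myh6-ctl. Bmp10, a defining atrial marker, was at 0 in all hearts but Myh6-tg replicate 2 (0.104 CPM), and Myl7 was at 0.236 CPM or less in every heart but Myh6-tg replicates 2 and 3 (1.75 and 5.55 CPM). Ventricular markers (5 genes) summed to 6685 to 7951, 4064 to 6212, 5687 to 7116 and 1512 to 2492 CPM in the same order of groups, with 2 of 5 lower in the EIIa model and 3 of 5 in the Myh6 model.

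Skeletal muscle markers, relevant to Acta1, summed to 10.4 to 70.1 CPM over all hearts. Of those tested, 2 of 4 were higher in the EIIa model (Tnnt3 and Mybpc2) and 1 of 5 in the Myh6 model (Tnnt3). Tnnt3 was at 53.0, 9.31 and 6.60 CPM in the hearts labelled Myh6-tg, against 0.216, 1.09 and 1.14 CPM in those labelled Myh6-ctl. The skeletal myosins Myh4 and Myh8 and the factor Myf6 were at or under 3 counts in every EIIa heart. Fibroblast markers summed to 1235 to 1941 CPM in EIIa-ctl and 2592 to 4168 CPM in EIIa-tg hearts (2 of 7 passed, higher), and to 1659 to 2489 CPM in Myh6-ctl and 2793 to 7940 CPM in Myh6-tg hearts (3 of 7, higher). Leukocyte markers summed to 272 to 450 and 683 to 967 CPM in the EIIa groups (6 of 6 higher) and to 519 to 1105 and 744 to 1656 CPM in the Myh6 groups (0 of 6 passed). Of 6 smooth muscle markers, 1 was higher and 1 lower in the EIIa model, and 1 higher and 2 lower in the Myh6 model. Erythroid markers summed to 1379 to 2450 CPM in EIIa-ctl and 218 to 1255 CPM in EIIa-tg hearts (1 of 5 passed, lower), and to 4307 to 8034 CPM and 2243 to 4492 CPM in the Myh6 groups (3 of 5, lower). Endothelial markers summed to 771 to 916 and 680.2 to 719 CPM in the EIIa groups (3 of 5 lower) and to 419 to 1002 and 645 to 663 CPM in the Myh6 groups (0 of 5 passed). The part of these cell types in the changes of the program genes was not tested. Brain markers, looked at because a protocol names brain tissue, summed to at most 14.8 CPM.

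The other genes of the program were read from 6 lists. The counts that passed stand beside 17.0% of all genes tested in the EIIa model and 18.3% in the Myh6 model. Of 10 genes of mechanical strain, 6 passed higher and 1 lower in EIIa-tg hearts, and 5 higher in hearts labelled Myh6-tg. The median log2 fold change of the list was 1.24 and 1.62, against 0.02 and 0.03 over all genes tested. Abra, an actin-binding activator of SRF signalling, rose by 2.43 (adjusted p 0.0135) and Fhl1, a LIM protein of the stretch sensor, by 2.20 (0.0147) in EIIa-tg hearts, and Xirp2, a protein of the intercalated disc, rose by 1.55 (0.0166) there and by 1.77 (0.0140) in hearts labelled Myh6-tg. In the latter, Xirp1, a related protein, rose by 1.61 (0.00487) and Des, the intermediate filament of muscle, by 2.15 (0.0119). Fhl2 was the exception and fell by 1.20 on the log2 scale in EIIa-tg hearts (0.0335).

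Of the fetal contractile isoforms, 4 of 11 passed higher in EIIa-tg hearts, and 3 of 12 higher and 1 lower in hearts labelled Myh6-tg, with medians of 0.32 and 1.51. Cnn1, a calponin that is also a smooth muscle gene, rose by 3.81 (adjusted p 0.0147), Myl1, a fast skeletal light chain, by 2.54 (0.0147) and Tnni1, the slow skeletal troponin I of the fetal heart, by 2.13 (0.0375) in EIIa-tg hearts. In hearts labelled Myh6-tg Actn1, a non-muscle α-actinin, rose by 2.09 (0.00157) and Myl4, the atrial and fetal light chain, by 3.11 (0.0131). Myh7b, the host of miR-499, went the other way, from 7.33 to 23.7 CPM in Myh6-ctl to 0.859 to 1.45 CPM in Myh6-tg hearts, with a log2 fold change of -4.07 (0.00222).

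All adult partners that passed were lower. Among 12 genes of calcium handling and energy supply, 3 passed lower in EIIa-tg hearts and 7 lower in hearts labelled Myh6-tg, with medians of -1.04 and -1.98. Kcnip2, a subunit of a potassium channel, was at -1.20 (adjusted p 0.0317), Ryr2, the calcium release channel, at -1.05 (0.0322) and Slc2a4, the insulin-responsive glucose transporter, at -1.04 (0.0392) in EIIa-tg hearts. In hearts labelled Myh6-tg the lowest p values belonged to Ckmt2, the mitochondrial creatine kinase, at -2.14 (0.00586), Ppargc1a, a coactivator of mitochondrial genes, at -2.39 (0.00588), and Cpt1b, which admits fatty acids to mitochondria, at -1.15 (0.00887). Of 10 adult contractile partners, with medians of -0.39 and -0.20, 1 passed in the EIIa model and 3 in the Myh6 model. Myl3, a ventricular light chain, passed in both models (-0.84, adjusted p 0.0426, and -1.97, adjusted p 0.00945), while Tnni3, the adult troponin I, at -2.39 (0.0124), and Myl2, the other ventricular light chain, at -2.07 (0.0112), passed in hearts labelled Myh6-tg. In EIIa-tg hearts Mylk3 (-0.47, adjusted p 0.0505) and Tnni3 (-0.74, 0.0520) came next and did not pass.

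**Figure D5:**
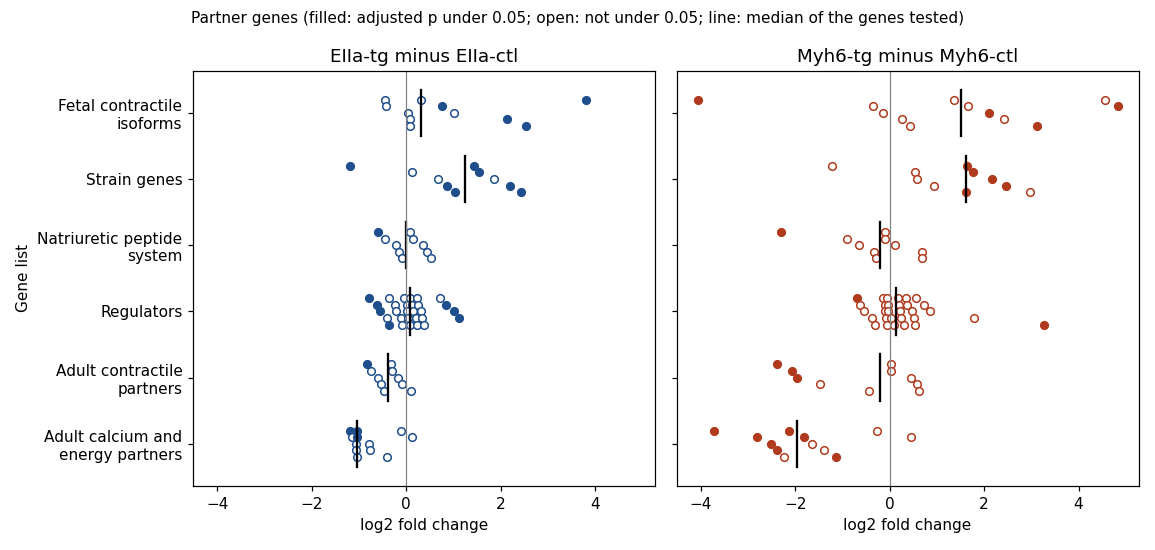
log2 fold change of each tested gene of the 6 partner lists in the EIIa model (left) and the Myh6 model (right), filled for an adjusted p under 0.05, with the list median as a line. Medians of the strain genes are 1.24 and 1.62, and those of the calcium and energy genes -1.04 and -1.98.

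Of 10 other genes tested of the natriuretic peptide system, 6 that process, bind or degrade the peptides and 4 that act on cGMP downstream of their receptors, 1 passed in each model, both lower: Corin, the protease that activates the Nppa product, at -0.59 (adjusted p 0.0453) in EIIa-tg hearts, and Mme, neprilysin, which degrades natriuretic peptides, at -2.30 (0.00570) in hearts labelled Myh6-tg. The next genes did not pass, namely the receptors Npr3 (0.53, adjusted p 0.0846) and Npr2 (-0.21, 0.189) in the EIIa model and the proteases Furin (0.68, 0.0560) and Corin (-0.90, 0.282) in the Myh6 model. Of the known regulators of the program, 3 passed higher and 4 lower of 29 in EIIa-tg hearts, and 1 higher and 1 lower of 30 in hearts labelled Myh6-tg. Beside 17.0% and 18.3% of all genes tested, the counts of regulators and of natriuretic genes are not read as a result about either list. Hand2, a transcription factor of the developing heart, rose by 1.02 (0.0135), Rcan1, a target and brake of calcineurin, rose by 1.11 (0.0166) and Tead1, which binds M-CAT elements, was lower at -0.62 (0.0185) in EIIa-tg hearts. In hearts labelled Myh6-tg Dio2, the enzyme that activates thyroid hormone, rose by 3.27 (0.0343), from at most 2.61 CPM in controls to 2.90, 37.0 and 27.8 CPM, Mef2c was lower at -0.70 (0.0462), and Mef2d (0.52, 0.0601) did not pass.

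The genes whose pattern over the 12 hearts was nearest to each program gene were found by the root mean square difference of log2(CPM + 1), centred on the mean of the hearts, among 10225 genes. Nearest to Nppa were Ctgf, a matrix protein gene (0.55), Uchl1, a ubiquitin hydrolase gene (0.59), and Crct1 (0.62), where Nppa itself had a spread of 2.02 by the same measure. Nearest to Myh6, with a spread of 1.26, were Gpt (0.30), Ckm, the muscle creatine kinase gene (0.33), and Armc2 (0.35). For Myh7, with a spread of 1.16, the nearest were Nqo1 (0.62), Mmp12 (0.66) and Pf4 (0.68). For Nppb (spread 1.08) the nearest were Cd14 (0.41), Akr1b8 (0.43) and Fcgr2b (0.43), for Acta1 (0.92) Prune2 (0.49), Abat (0.53) and Wt1 (0.58), and for Actc1 (0.53) Ptges3l (0.24), Itgb1bp2 (0.26) and Fuca2 (0.26). These distances are descriptions over 12 hearts that share groups and libraries, and no program gene was nearest to another because members were left out of the search.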

How the data were processed

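RNA from 12 mouse hearts was sequenced with NEBNext Ultra libraries. According to the study, reads were mapped to GRCm38 with HISAT2, and the submitters' processing notes also list StringTie 2.2.1, HISAT2 2.0.4, mm10 and GRCm39. The authors deposited raw counts per gene without normalization and FPKM values, which they scaled to transcript length and library size. The counting program, annotation and strand setting are not given in the sources used here, and genes on the opposite strand overlap Nppa, Myh6, Myh7, Acta1 and Actc1. Groups came from the sample titles, because 2 EIIa-tg hearts carry other genotype names in the labels. Positions came from GENCODE M21, and sequences from RefSeq tables.

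Counts were filtered with filterByExpr, scaled by TMM and passed to the quasi-likelihood test (glmQLFit, glmQLFTest) of edgeR 4.0.16 in R 4.3.3, in the 6 hearts of each comparison (12 for the difference), with Benjamini-Hochberg adjustment over all genes tested. P-values measure the spread between 3 hearts per group. Shares from FPKM were tested by two-sided exact permutation tests (smallest p 0.1). The tests were checked on simulated data. The main tests did not pair hearts, and the block on replicate was an alternative. In the Myh6 model the deviations of same-numbered hearts from the group mean correlated at 0.285, 0.184 and 0.173. Replicate 1 also held the Y-linked counts in each group, and for it a shared number and these counts cannot be told apart. No libraries were duplicates. The 3 counts taken as a floor correspond to 0.0589 to 0.0782 CPM, which covers counting error only.

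Alternatives were DESeq2 1.42.0, limma 3.58.1 on log2(FPKM + 1) and log2(FPKM + 0.1), RLE factors, other filters, bias-adjusted quasi-likelihood, all 12 hearts, a replicate block, a Y-linked covariate, removal of mitochondrial genes and leaving out each heart, and, chosen after seeing the data, scaling to cardiomyocyte markers. The 6 genes and the lists were chosen with earlier results of these data known. From each list the 3 genes with the lowest p in each model were named. The 3 genes nearest in pattern to each program gene were named too. Others were chosen after their values were seen (Fhl2, Myl7, Bmp10, Dkk3, Stard10, Tnnt3, Mybpc2, Myh4, Myh8 and Myf6). Promoter windows of Nppb, Myh6 and Actc1, which overlap annotated exons, are not printed. The transgene and Mhrt were not analysed here.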

Additional observations from a re-analysis of the deposited data

How the results depend on the processing

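The 3 passing genes of the EIIa model became 0 with all 12 hearts in 1 fit, 0 with the replicate block, 1 with limma on log2(FPKM + 1) and 0 to 6 with a heart left out, and its 0 DEGs became 1 with DESeq2 and 0 to 4 with a heart left out. The 1 passing gene of the Myh6 model became 2 with DESeq2, no filter on low counts, all 12 hearts, the replicate block or the Y-linked covariate, 3 with limma on log2(FPKM + 1) and 3 on log2(FPKM + 0.1), and 0 to 2 with a heart left out, and its 0 DEGs became 1 under each of these settings except the absence of a filter, and 0 to 1 with a heart left out. The difference between models went from 0 to 2 passing genes (without Myh6-tg replicate 1) and the controls from 0 to 1 with a heart left out, and to 2 passing and 1 DEG with DESeq2. Shares of all genes were given above for only some of these settings. The counts therefore describe the settings and are no result about the 6 genes alone.

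Signs changed for genes that had not passed. Myh7 in the Myh6 model was at -0.45 with the replicate block, -0.46 with the Y-linked covariate and -1.40 to 1.07 with a heart left out. In the difference between models, Nppb ran from -0.60 to 0.59 and Actc1 from -0.44 to 0.63 with a heart left out. Between controls, Actc1 was at 0.0024 with DESeq2, 0.0027 with RLE factors and 0.0051 with a filter of 1 CPM in 3 hearts, and ran from -0.23 to 0.21 with a heart left out, and Acta1 ran from -0.024 to 0.62. The causes were not tested. Same-numbered hearts did not deviate together in the EIIa model (correlations of 0.060, -0.070 and -0.050) or between controls (0.124, 0.060 and -0.031), and not every heart correlated best with its own number, so the block there used a shared number without a pairing. The isoform shares kept their direction in every setting, and their p cannot fall under 0.1 (0.25 with same-numbered hearts exchanged). The 6 genes had enough counts that depth was no limit, and 3 hearts per group set the precision. Absence of a call is no sign of an equal level.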

Other observations

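The summed amount of both myosin heavy chain transcripts was also lower in transgenic hearts. Myh6 plus Myh7 came to 1896, 1717 and 2121 FPKM in EIIa-ctl hearts and 999, 1574 and 840.4 FPKM in EIIa-tg hearts, without overlap, and to 1552, 1283 and 1819 FPKM in the hearts labelled Myh6-ctl and 1212, 275 and 244 FPKM in those labelled Myh6-tg. Myh6-tg replicate 1 was thus close to its controls in total myosin transcript while its Myh7 share was 56.5%.

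The ratio of Nppa to Nppb in FPKM was 2.46, 3.59 and 3.54 in EIIa-ctl hearts, 3.80, 6.33 and 5.14 in EIIa-tg hearts, 0.942, 8.04 and 7.54 in the hearts labelled Myh6-ctl and 9.14, 20.3 and 24.0 in those labelled Myh6-tg. Myh6-ctl replicate 1 was the 1 heart with less Nppa than Nppb. These ratios were not tested.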
